A study of Mus musculus with 28 samples.

Results

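The genes described here encode the constitutive proteasome, its activators and 1 inducible catalytic subunit. They were chosen by symbol, as the genes named Psma, Psmb, Psmc, Psmd, Psme or Psmf followed by a number and at most 1 letter, leaving out Psmb8 and Psmb9. The rule found 43 of the 55291 genes in the tables. Of these, 41 passed the filter on low values in every experiment, which kept genes with at least 1 TPM or 10 normalized counts in at least 3 culture libraries or 5 day 16 libraries. TPM is the transcript level per length, scaled to a sum of 1000000 per library. The 41 were 7 alpha ring subunits, 7 beta ring subunits, the inducible subunit Psmb10, 6 ATPases and 3 other subunits of the base, 8 lid subunits, 3 assembly chaperones of the base, and 6 activators or inhibitors. Psma8, the testis-type alpha subunit, was listed at 0 in every culture and tumour library, and at 0.224, 0.631, 0, 0.0563 and 2.37 TPM in the OT1 libraries. Psmb11, the thymus-type beta subunit, was above 0 in a single library of each of 2 groups, at 0.242 TPM with BAY-876 and 0.0573 TPM with TNF, both at 32 h.

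The study compared the response of LLC cells, a mouse Lewis lung carcinoma line, to TNF and to BAY-876, an inhibitor of the glucose transporter Glut1, and asked about glucose transporters in tumour and T cells. In the 36 h experiment, wild-type LLC cells received 200 nM BAY-876 or vehicle (n = 3 libraries each). In the 32 h experiment, wild-type LLC cells were kept for 24 h with or without 200 nM BAY-876, followed by 32 h with or without TNF at 20 ng/ml, which gave the groups BAY-876 with TNF, TNF, BAY-876 and control (n = 3 each). On day 16, OT1 T cells and tumour cells were sorted from LLC-OVA-NGFR tumours of Rag1 ko mice, all of which had received activated OT1 cells on day 9 (n = 5 libraries each). OT1 cells are CD8 T cells with a transgenic receptor for an ovalbumin peptide. Rag1 ko mice lack endogenous T and B cells but keep myeloid and natural killer cells. The treatment labels of replicates 2 and 3 of BAY-876 with TNF carry other compound numbers than their titles, and both libraries were grouped by title. Whether BAY-876 stayed on during the TNF period is not stated. The labels do not say that replicates are separate cultures or mice, so p-values measure the spread between these libraries, which may be technical.

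The 26S proteasome degrades ubiquitin-tagged proteins. Its 20S core is a barrel of outer alpha rings, which gate the entrance, and inner beta rings, in which Psmb5, Psmb6 and Psmb7 carry the chymotrypsin-like, caspase-like and trypsin-like sites. The 19S cap has a base, whose Psmc ATPases unfold substrates, and a lid, which removes ubiquitin. In cytokine-treated and immune cells, Psmb8, Psmb9 and Psmb10 can take the places of Psmb5, Psmb6 and Psmb7 in newly built cores, and the PA28 cap of Psme1 and Psme2 or the activators Psme3 and Psme4 can replace the 19S cap. Nfe2l1 is a transcription factor known to raise proteasome genes when proteasome activity falls.

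The 36 h table holds normalized counts with library sums of 16848000 to 17134500, and the 32 h and day 16 tables hold TPM, so their depth is unknown. The 3 tables were normalized separately and each was tested alone. The T cell genes Cd3d and Cd3e were at 0 in all culture libraries. Cd3g, Cd8a, Cd8b1 and Trac averaged at most 0.101 TPM at 32 h and 0.715 normalized counts at 36 h. The T cell marker Cd247 was above 0 in every culture library, with group means of 3.70 to 6.25 TPM and 145 to 173 normalized counts. Lck had group means of 0.172 to 0.779 TPM and 8.93 to 10.0 normalized counts. Summed markers of LLC cells were 1307 to 1393 TPM with BAY-876 and TNF, 1564 to 1663 TPM with TNF, 1665 to 1671 TPM with BAY-876 and 1904 to 1970 TPM in control. On day 16, Cd3e averaged 549 TPM in OT1 and 0.177 TPM in tumour libraries, and the epithelial keratin gene Krt8 averaged 30.7 TPM in OT1 and 406 TPM in tumour libraries. The 18 myeloid markers were all at a mean of at least 1 TPM in OT1 libraries, with sums of 2566 to 20703 TPM against 108 to 231 TPM in tumour libraries, and LLC markers summed to 130 to 275 TPM in OT1 libraries against 2106 to 2363 TPM in tumour libraries. Of the members, 9 share exonic bases with a gene on the other strand, among them Psmb7, Psmc3, Psmd1, Psmd13 and Psme1, and the sources used here do not say whether reads were counted by strand. In these bulk libraries, fewer cells of a type and less RNA per cell cannot be told apart.

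The subunits of the core were present at high and uneven levels in untreated LLC cells. In 32 h control libraries the 41 members ran from 19.2 TPM for Psmd9, a base chaperone, to 585 TPM for Psmb4, a non-catalytic beta subunit, with a median of 150.2 TPM. Their summed level was 7834, 7795 and 7808 TPM in the control libraries. The beta ring was the most even class of the core, with a 2.36-fold span of control means, against a 6.35-fold span in the alpha ring from Psma2 at 75.3 TPM to Psma7 at 478 TPM. The 6 ATPases ran from 67.9 TPM for Psmc6 to 262 TPM for Psmc3, and the 8 lid subunits from 59.6 TPM for Psmd13 to 228 TPM for Psmd7. Among the activators and inhibitors, means ran from 29.9 TPM for Psmf1, the inhibitor PI31, to 144 TPM for Psme3, the nuclear PA28gamma activator. Psmb10 stood at 20.7 TPM, below every beta ring subunit.

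TNF raised nearly the whole proteasome. Of the 41 members, 37 rose and 0 fell against control (limma, adjusted p under 0.05), where 19.4% of all 12780 genes tested rose and 26.1% fell. At unadjusted p under 0.05, 0 members were lower, against 30.2% of all genes. The authors' deposited table gave 0 lower and 38 higher at an adjusted p under 0.05, against 17.4% and 19.7% of its genes. The members' median log2 difference was 0.35, with quartiles of 0.22 and 0.45, against a median of -0.06 and quartiles of -0.32 and 0.18 over all genes. The summed level of the members was 9739, 9881 and 9814 TPM in TNF libraries, against 7834, 7795 and 7808 TPM in control libraries. All TNF libraries lay above all control libraries for 36 members, which was the case for 23.8% of all genes. Summed fibroblast markers were 360 to 423 TPM with TNF and 840 to 863 TPM in control. Most of this sum was Col3a1, at means of 367 and 805 TPM. Pdgfra averaged 22.1 TPM with TNF and 46.1 TPM in control, and Col1a2 0.543 and 1.71 TPM. Col1a1, Dcn and Lum averaged at most 0.853 TPM in either group. The LLC marker sums given above were also lower with TNF, but of the 8 single markers 3 were called higher and 5 lower. The part of these markers in the members' rise was not tested.

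The core rose as a whole apart from a single beta subunit. All 7 alpha subunits rose, by 0.17 to 0.45 on the log2 scale. Psma6 had 516, 516 and 503 TPM with TNF, against 380, 369 and 376 TPM in control. In the beta ring 6 of 7 subunits rose. The chymotrypsin-like subunit Psmb5 had 442, 457 and 443 TPM with TNF, against 333, 327 and 329 TPM in control, a log2 difference of 0.44 ± 0.03 (SE, limma adjusted p = 1.03e-06). The caspase-like subunit Psmb6 had 497, 511 and 486 TPM with TNF, against 392, 397 and 385 TPM in control, and the groups did not overlap. The trypsin-like subunit Psmb7 had 336, 327 and 331 TPM with TNF, against 257, 249 and 239 TPM in control, a difference of 0.41 ± 0.03 (limma adjusted p = 9.95e-07). All 3 catalytic subunits were thus higher in every TNF library than in every control library. The exception was Psmb1, a non-catalytic beta subunit, at 264, 270 and 274 TPM with TNF and 273, 263 and 264 TPM in control. Its log2 difference was 0.01, with a 95% interval of -0.06 to 0.09 (limma adjusted p = 0.79), and its groups overlapped.

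The cap subunits rose to a similar extent. Of the ATPases, 5 of 6 rose, and Psmc5 had the smallest p, with 338, 351 and 342 TPM under TNF against 242, 239 and 245 TPM in control and a log2 difference of 0.50 ± 0.03 (limma adjusted p = 3.43e-07). Psmc6, the remaining ATPase, differed by 0.20 (limma adjusted p = 0.084). The 3 non-ATPase base subunits, which include the ubiquitin receptor Psmd4, rose by 0.20 to 0.27. All 8 lid subunits rose, by 0.26 to 0.53. The structural lid subunit Psmd7 had 324, 335 and 331 TPM with TNF, against 226, 228 and 230 TPM in control, and its log2 difference of 0.53 ± 0.03 had a limma adjusted p of 6.29e-08. The medians of the 14 core and the 17 base and lid subunits were 0.33 and 0.32.

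The largest log2 differences among the members under TNF were those of the inducible subunit Psmb10 and the base chaperone Psmd10. Psmb10 encodes the inducible counterpart of Psmb7. It had 56.0, 59.5 and 55.6 TPM with TNF, against 21.3, 23.2 and 17.5 TPM in control, and the log2 difference of 1.43 ± 0.10 (SE) had a limma adjusted p of 3.43e-07. Psmd10, also known as gankyrin, is a chaperone that helps assemble the base. It had 65.3, 65.2 and 65.7 TPM with TNF, against 28.8, 28.3 and 31.0 TPM in control, a difference of 1.13 ± 0.06 (limma adjusted p = 5.69e-08). In both genes the TNF libraries were far above the control libraries and close to each other. The other base chaperones Psmd5 and Psmd9 rose by 0.37 and 0.55 (limma adjusted p = 0.0277 and 0.00196). The Psmd5 call was lost with no filter, without control replicate 1 or 3 or TNF replicate 2 or 3, and with only the libraries compared.

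The activators split. The PA28 subunits rose, with Psme1 at 94.7, 105 and 96.4 TPM under TNF against 73.2, 71.6 and 68.1 TPM in control and a log2 difference of 0.47 ± 0.05 (limma adjusted p = 2.67e-05). Psme2 had 132, 143 and 139 TPM with TNF, against 93.9, 74.8 and 81.1 TPM in control, and rose by 0.73. Psme2b rose by 0.86, but its transcript is 94.5% identical to that of Psme2 over 788 aligned bases, so the division of reads between the pair is uncertain. Their sum averaged 225 TPM with TNF and 131 TPM in control. Psme3 had 201, 204 and 194 TPM with TNF, against 145, 146 and 141 TPM in control, a difference of 0.47 ± 0.03 (limma adjusted p = 7.13e-07). Psme4, the PA200 activator, did not pass the test. It had 51.3, 50.5 and 48.4 TPM with TNF and 50.0, 47.1 and 48.8 TPM in control, a difference of 0.04 with a 95% interval of -0.06 to 0.15 (limma adjusted p = 0.51). The inhibitor Psmf1 differed by 0.06 (limma adjusted p = 0.46).

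**Figure D1:**
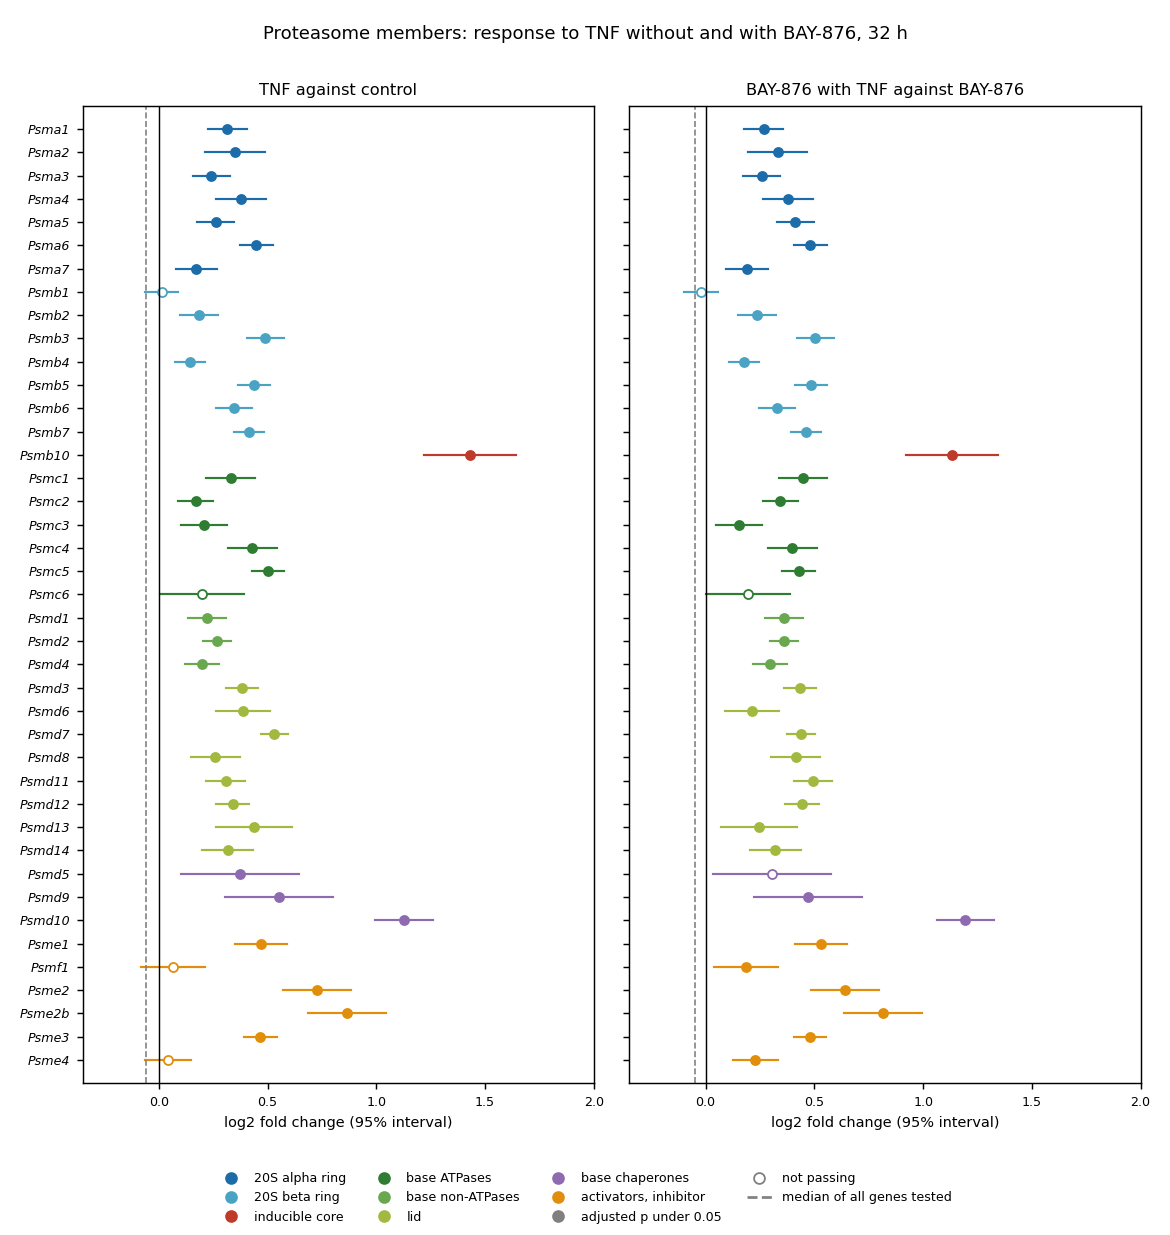
Log2 difference of each of the 41 members under TNF, without BAY-876 (TNF against control, left) and with it (BAY-876 with TNF against BAY-876, right), n = 3 libraries per group. Dots are estimates with 95% intervals, coloured by class and filled where the limma adjusted p was under 0.05, and the dashed line is the median of all genes. Nearly all dots lie right of the dashed line, with Psmb10 and Psmd10 farthest out and Psmb1 near 0.

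With BAY-876 present, TNF raised 38 of 41 members and lowered 0, set against BAY-876 alone, where 19.3% of all genes rose and 24.8% fell. At unadjusted p under 0.05 the count of lower members was again 0, against 29.1% of all genes. The authors' deposited table had 40 higher and 0 lower, against 19.1% and 17.3% of its genes. All libraries with TNF lay above those without it for 39 members, and for 22.7% of all genes. The median difference was 0.38, against -0.05 over all genes, and 40 of 41 members had a positive difference. Psmd10 had 57.9, 50.7 and 58.7 TPM with BAY-876 and TNF, against 24.4, 23.3 and 23.6 TPM with BAY-876, a log2 difference of 1.19 ± 0.06 (limma adjusted p = 3.78e-08). Psmb10 had 58.3, 57.7 and 59.2 TPM with BAY-876 and TNF, against 28.3, 27.2 and 22.9 TPM with BAY-876, and rose by 1.13 ± 0.10 (limma adjusted p = 2.34e-06). Both genes were separated between the groups without overlap. Psmd7, Psmb5, Psmb7, Psme3 and Psma6 rose by 0.44 to 0.48, and Psmb6 by 0.33. All 6 activators and inhibitors rose, with Psme1 and Psme2 up by 0.53 and 0.64, Psme4 by 0.23 (limma adjusted p = 0.00223) and Psmf1 by 0.19 (limma adjusted p = 0.0394). The Psmf1 call was lost with no filter and without BAY-876 replicate 1 or 3, TNF replicate 2 or any library of BAY-876 with TNF (limma adjusted p = 0.0521 to 0.118). Psmb1 differed by -0.02 (limma adjusted p = 0.66), and Psmc6 and the base chaperone Psmd5 by 0.19 and 0.31 without passing the test.

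Across the 41 members, the responses to TNF without and with BAY-876 had a Pearson r of 0.92 and a Spearman rho of 0.80, and 36 members rose in both. Over all genes r was 0.79 and rho 0.77, and 14.8% rose in both. These pairs share no libraries, but all 12 libraries come from a single table and members differ in level, and genes are not independent replicates. The difference between both responses was tested directly as an interaction, which took the BAY-876 difference with TNF minus that without. Of the 41 members 0 passed the limma test, where 1.56% of all genes did, 0.736% positive and 0.822% negative. At unadjusted p under 0.05, 6 members were positive and 2 negative, against 7.46% and 7.39% of all genes, and after median-of-ratios scaling 0 passed, against 0.854% positive and 1.00% negative of all genes. The largest member estimate was that of Psmb10, at -0.30 with a 95% interval of -0.59 to 0.00 (limma adjusted p = 0.34).

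**Figure D2:**
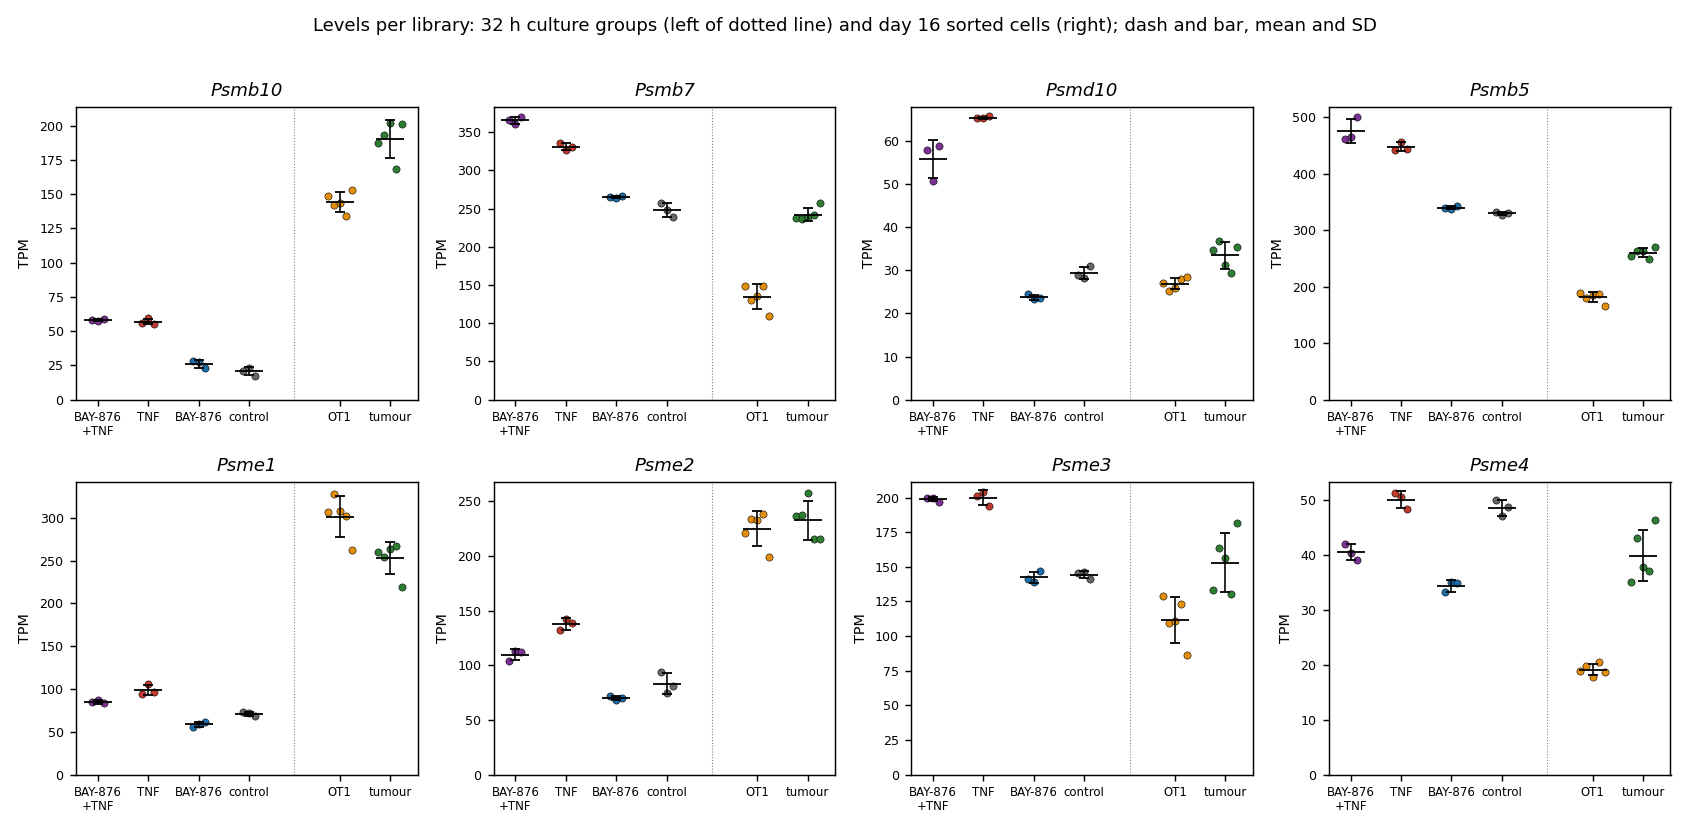
TPM of 8 members in each library of the 32 h experiment and of day 16, by group, with the mean and SD (n = 3 per culture group, n = 5 on day 16), and a dotted line between the separately normalized tables. Psmb10 and Psmd10 are high in both groups given TNF, and Psme4 is lowest, among the culture groups, with BAY-876 alone.

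Promoters of 4 members are shown to set the genes with the strongest response beside ordinary subunits. Psmb10 and Psmd10 had the largest TNF differences, Psmb5 is a catalytic subunit with a smaller rise, and the lid subunit Psmd12 rose by 0.34 and had more kinds of searched motif than the other 3. Each sequence is the 250 bases before the RefSeq transcript start on GRCm38.p6, written 5′ to 3′ on the gene's strand, with capitals marking motif matches. They lie at chr8:105938393-105938642 on the minus strand for Psmb10, chrX:140956712-140956961 on the minus strand for Psmd10, chr14:54617996-54618245 on the minus strand for Psmb5 and chr11:107479278-107479527 on the plus strand for Psmd12.
Psmb10: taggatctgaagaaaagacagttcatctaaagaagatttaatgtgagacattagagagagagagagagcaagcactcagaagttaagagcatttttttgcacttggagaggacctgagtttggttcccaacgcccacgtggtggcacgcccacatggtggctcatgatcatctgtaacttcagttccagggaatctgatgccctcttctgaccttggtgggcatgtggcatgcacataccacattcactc
Psmd10: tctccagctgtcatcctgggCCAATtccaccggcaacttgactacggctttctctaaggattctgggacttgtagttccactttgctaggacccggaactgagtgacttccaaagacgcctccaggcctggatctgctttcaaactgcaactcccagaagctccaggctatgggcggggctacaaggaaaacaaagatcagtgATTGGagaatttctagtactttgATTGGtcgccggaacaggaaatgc
Psmb5: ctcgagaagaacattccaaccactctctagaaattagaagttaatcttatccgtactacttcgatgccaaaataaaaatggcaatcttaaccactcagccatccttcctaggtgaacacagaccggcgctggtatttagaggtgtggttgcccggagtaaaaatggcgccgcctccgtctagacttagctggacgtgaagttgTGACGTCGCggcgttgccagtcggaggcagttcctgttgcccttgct
Psmd12: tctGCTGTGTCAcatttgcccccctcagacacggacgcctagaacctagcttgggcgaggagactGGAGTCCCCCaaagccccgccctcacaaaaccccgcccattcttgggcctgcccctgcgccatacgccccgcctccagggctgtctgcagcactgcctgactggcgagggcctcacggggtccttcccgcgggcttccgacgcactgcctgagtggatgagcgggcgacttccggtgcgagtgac

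RefSeq promoters were matched for 36 of the 43 members, in 39 entries. The motifs were searched on both strands as the CCAAT box (CCAAT), the core of the antioxidant response element that Nfe2l1 and Nfe2l2 are known to bind (TGACNNNGC), an interferon-type repeat (GAAA, any 2 bases, GAAA) and the NF-kappaB consensus. No match overlaps another in the sequences printed. Psmb10 has no match. Psmd10 has 3 CCAAT matches, which start 230, 47 and 24 bases before the transcript start. Psmb5 has the antioxidant core 47 bases before the start, and Psmd12 has it at 247 bases with an NF-kappaB match at 185 bases. Over the 39 entries, the antioxidant core was present in 12.8%, against 10.2% of all 32851 promoters. CCAAT was present in 33.3%, against 33.9% of all. The interferon-type repeat was present in 7.69% against 2.98%, or 3 entries, and the NF-kappaB consensus in 2.56% against 3.90%, or 1 entry. These are matches of letters in this window, not measured binding.

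The share of the inducible subunit in its catalytic pair was higher with TNF for Psmb10 and Psmb8 and not for Psmb9, as described here without a test. Psmb10 made up 13.8 ± 0.036% of the summed TPM of Psmb10 and Psmb7 with BAY-876 and TNF, 14.7 ± 0.618% with TNF, 8.98 ± 0.922% with BAY-876 and 7.67 ± 0.854% in control (SD, n = 3 each). Both groups given TNF lay above both groups without it in every library. Psmb8, the counterpart of Psmb5, made up 8.78% of its pair with BAY-876 and TNF, 11.1% with TNF, 6.72% with BAY-876 and 8.01% in control. Psmb9, the counterpart of Psmb6, made up 0.988% with BAY-876 and TNF, 1.39% with TNF, 1.45% with BAY-876 and 1.87% in control. Psmb8 itself rose with TNF by 0.93 (limma adjusted p = 2.76e-07), and Psmb9 differed by -0.07 (limma adjusted p = 0.71). In TPM, then, the constitutive catalytic subunits remained the larger part of each pair in every culture group.

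**Figure D3:**
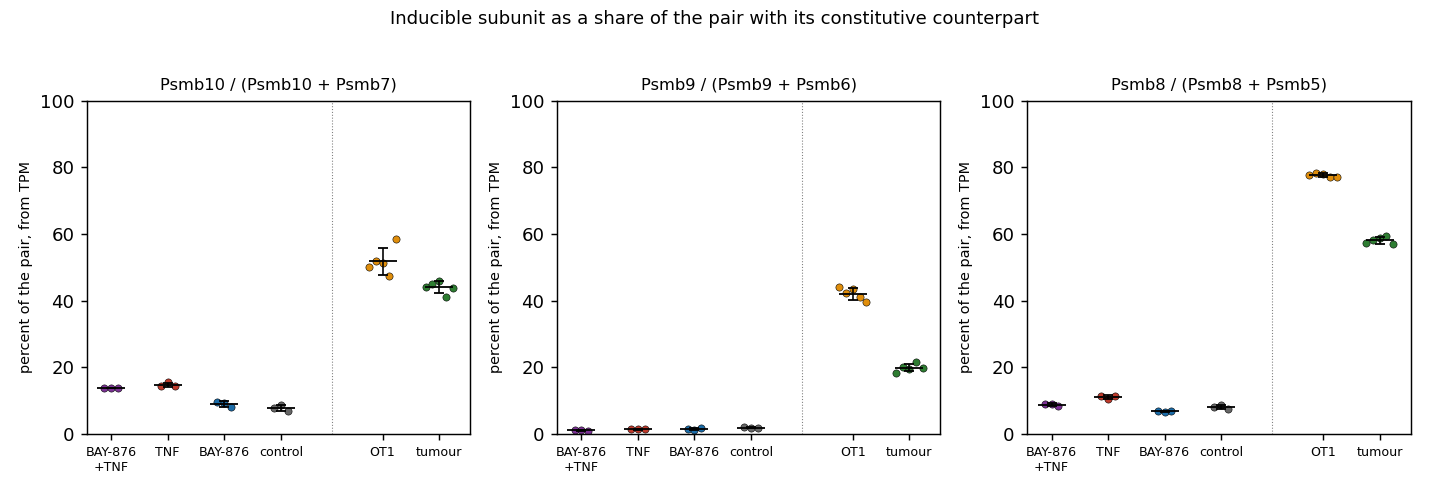
Percent of the inducible subunit in the summed TPM of each catalytic pair (Psmb10 with Psmb7, Psmb9 with Psmb6, Psmb8 with Psmb5), per library with mean and SD (n = 3 per culture group, n = 5 on day 16). Culture means lie at 0.988 to 14.7% over the 3 pairs, and day 16 means at 19.8 to 77.7%.

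BAY-876 changed fewer members than TNF did, and the split between higher and lower depended on the scaling. In TPM, 3 of 41 members rose and 12 fell against control at 32 h, where 11.5% of all genes rose and 25.8% fell. The median of all genes was -0.09 in TPM and 0.00 after median-of-ratios scaling, which was chosen after seeing the data. After that scaling 10 members rose and 4 fell, against 18.4% and 16.6% of all genes, and the authors' deposited table had 9 higher and 3 lower, against 16.3% and 15.3% of its genes. The members called in the same direction under both scalings were Psma3, Psmb7 and Psmb10, which rose, and Psme4, Psme1, Psmd10 and Psmd2, which fell. Of these, the authors' deposited table did not call Psmb10, Psme1 or Psmd10 (authors' adjusted p = 0.0774, 0.148 and 0.169). The members' median was -0.04 in TPM.

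Psme4 had the lowest adjusted p of the members in this comparison. It had 33.2, 35.1 and 34.9 TPM with BAY-876, against 50.0, 47.1 and 48.8 TPM in control, and fell by 0.49 ± 0.05 (SE, limma adjusted p = 2.25e-05), or by 0.39 after median-of-ratios scaling. The BAY-876 libraries were all below the control libraries, and the authors' deposited table gave -0.40 (adjusted p = 5.64e-12). Psme1 had 55.1, 59.7 and 60.9 TPM with BAY-876, against 73.2, 71.6 and 68.1 TPM in control, and fell by 0.27 (limma adjusted p = 0.00226). Psmd10 had 24.4, 23.3 and 23.6 TPM with BAY-876, against 28.8, 28.3 and 31.0 TPM in control, and fell by 0.29 (limma adjusted p = 0.00268). The base scaffold subunit Psmd2 fell by 0.22 (limma adjusted p = 0.000171). In Psme1 and Psmd10, too, the groups did not overlap. Lower values without overlap were seen in 14 of 41 members and in 4411 of all 12780 genes.

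Of the activators and inhibitors, 4 of 6 fell in TPM, with a class median of -0.23 against 0.01 for the core and -0.05 for base and lid together. Psme2 and Psmf1 fell by 0.24 and 0.23 in TPM but were not called after median-of-ratios scaling. The lid subunit Psmd12 and the base scaffold Psmd1 fell by 0.19 and 0.20 in TPM and were also not called after median-of-ratios scaling. The authors' deposited table called Psmd1 lower, at -0.10, and did not call Psmd12 (authors' adjusted p = 0.035 and 0.242). Psme3 had 141, 139 and 147 TPM with BAY-876 and 145, 146 and 141 TPM in control, which overlapped, and a difference of -0.02 (limma adjusted p = 0.70). Psmb10 had 28.3, 27.2 and 22.9 TPM with BAY-876, against 21.3, 23.2 and 17.5 TPM in control. It rose by 0.33 ± 0.10 (limma adjusted p = 0.019), and its groups overlapped. The Psmb10 call was lost without BAY-876 replicate 1 or 2 or control replicate 3 (limma adjusted p = 0.0735, 0.0624 and 0.0664). It was also lost with only the libraries compared. Psmb7 rose by 0.10 (limma adjusted p = 0.0346), and this call was lost without control replicate 2 or 3, without any of the 3 BAY-876 libraries and with only the libraries compared (limma adjusted p = 0.0691 to 0.133). Psmb5 and Psmb6 differed by 0.04 and 0.08 in TPM without passing the test.

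In cells given TNF, BAY-876 raised 3 members and lowered 9 in TPM, where 10.4% of all genes rose and 23.6% fell. After median-of-ratios scaling 8 rose and 3 fell, against 16.2% and 15.8% of all genes, and the authors' deposited table had 9 higher and 3 lower, against 14.4% and 13.4% of its genes. The 6 members called the same way under both scalings were Psma3, Psmb7 and Psmd11, which rose, and Psme4, Psme2 and Psmd13, which fell. Psme4 had 42.0, 40.4 and 39.1 TPM with BAY-876 and TNF, against 51.3, 50.5 and 48.4 TPM with TNF, and fell by 0.30 ± 0.05 (limma adjusted p = 0.000658). Psme2 had 104, 113 and 113 TPM with BAY-876 and TNF, against 132, 143 and 139 TPM with TNF, and fell by 0.33 (limma adjusted p = 0.00458). Psmb7 had 366, 361 and 369 TPM with BAY-876 and TNF, against 336, 327 and 331 TPM with TNF, and rose by 0.14 (limma adjusted p = 0.00508). None of these 3 genes overlapped between the groups. Without overlap, 13 of the 41 members were lower and 7 higher. Over all 12780 genes, 3903 were lower and 1846 higher in this way. Psmd11, a lid subunit, rose by 0.19 and Psmd2 fell by 0.13 (limma adjusted p = 0.00361 and 0.00554), Psmd2 in TPM alone. Psme1 fell by 0.21 in TPM (limma adjusted p = 0.0106). Psmb10, Psmb5, Psmb6, Psme3 and Psmf1 differed by 0.03, 0.09, 0.06, -0.01 and -0.11 without passing the test.

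Across members, the BAY-876 responses without and with TNF had an r of 0.76 and a rho of 0.77, from libraries that are not shared. Psma3 and Psmb7 rose in both, and Psma7, Psmd2, Psmd10, Psme1, Psme2 and Psme4 fell in both, in TPM. Over all genes r was 0.63 and rho 0.66, with 6.66% higher and 16.8% lower in both.

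The combined treatment was close to TNF alone over the complex. BAY-876 with TNF against control, which shares its control libraries with the TNF comparison, raised 35 members and lowered 1, where 20.9% of all genes rose and 37.9% fell. The summed level was 9476, 9788 and 9884 TPM with BAY-876 and TNF, against 7834, 7795 and 7808 TPM in control. Psmb7, Psmb3 and Psmb5 rose by 0.56, 0.56 and 0.53, Psmd7 by 0.46, Psmd10 by 0.90 and Psmb10 by 1.46. Psmb6, Psme1, Psme2 and Psme3 rose by 0.40, 0.26, 0.40 and 0.46, and Psmf1 differed by -0.04. The median was 0.38 in the core, 0.28 in base and lid, 0.59 in the base chaperones and 0.33 in the activators and inhibitors. The member that fell was Psme4, by 0.26 (limma adjusted p = 0.00064), and after median-of-ratios scaling it differed by -0.10 without passing the test.

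**Figure D4:**
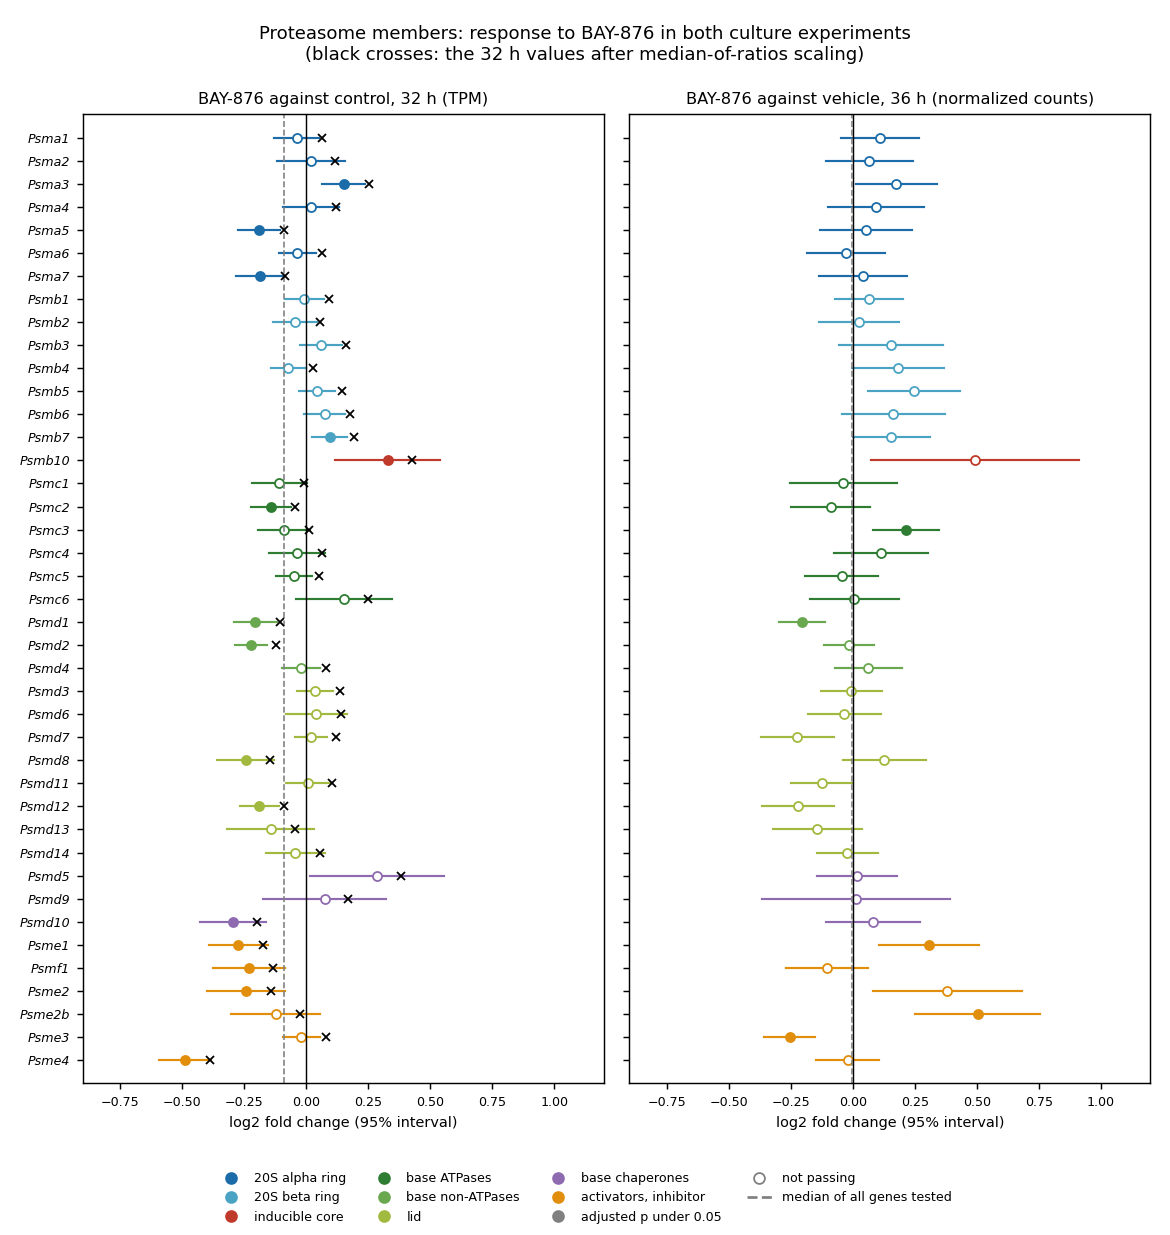
Log2 difference of each member with BAY-876, against control at 32 h in TPM (left) and against vehicle at 36 h in normalized counts (right), n = 3 libraries per group. Dots are estimates with 95% intervals, filled where the limma adjusted p was under 0.05, and black crosses in the left panel are values after median-of-ratios scaling. The crosses sit right of their dots, and Psme4 lies lowest at 32 h under both.

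At 36 h, BAY-876 alone changed few members. Against vehicle 3 members rose and 2 fell, where 7.34% of all genes rose and 7.10% fell. Psme3 had 4209, 4070 and 4153 normalized counts with BAY-876, against 4859, 5016 and 4961 with vehicle, and fell by 0.26 ± 0.04 (SE, limma adjusted p = 0.00818). Psmd1, the largest base scaffold, had 5940, 5901 and 5917 normalized counts with BAY-876, against 6812, 6881 and 6757 with vehicle, and fell by 0.20 (limma adjusted p = 0.0139). Both genes separated the groups without overlap. In this direction, 5 of 41 members and 2385 of all 12937 genes did so. Psme1 had 758, 619 and 690 normalized counts with BAY-876, against 552, 560 and 551 with vehicle, and rose by 0.31 (limma adjusted p = 0.0493). Psme2b and the ATPase Psmc3 rose by 0.50 and 0.21 (limma adjusted p = 0.02 and 0.0409). Psme4 differed by -0.02 (limma adjusted p = 0.85) and Psmb10 by 0.49 ± 0.19 (limma adjusted p = 0.11), with 232, 181 and 160 normalized counts with BAY-876 against 146, 108 and 153 with vehicle.

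Of the 14 core subunits 0 passed the limma test at 36 h and 3 had an unadjusted p under 0.05, all higher, against 15.6% of all genes. A positive difference was seen in 13 core subunits, with a median of 0.10, and in 49.8% of all genes. The catalytic subunits Psmb5, Psmb6 and Psmb7 differed by 0.25, 0.16 and 0.16, and Psme2 and Psmf1 by 0.38 and -0.10, none past the test. The count of 5 members rested on single libraries. It was 1 without any of the 3 vehicle libraries, 2 without BAY-876 replicate 3 and 10 without BAY-876 replicate 1, and Psme3 was called each time. BAY-876 replicate 1 had a summed member signal of 109768 normalized counts, against 96839 to 100714 in the other libraries. Across members, the BAY-876 differences at 36 h and at 32 h had an r of 0.17, against 0.28 over 12086 genes, and only Psmd1 fell in both, as did 2.75% of those genes. Psme1 was called in opposite directions, higher by 0.31 at 36 h and lower by 0.27 at 32 h. The 36 h call was lost with no filter, quantile normalization or the replicate block, and without any single library other than BAY-876 replicate 2. The authors' deposited table did not call Psme1 at 32 h (authors' adjusted p = 0.148). The schedules also differed, with 24 h of BAY-876 before the 32 h period.

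On day 16, OT1 cells had less of most proteasome transcripts than tumour cells. Of the 41 members, 33 were lower and 4 higher in OT1 (limma, adjusted p under 0.05), where 44.4% of the 13511 genes tested were lower and 30.1% higher. All OT1 libraries lay below all tumour libraries for 33 members and for 37.8% of all genes. The summed level was 5448, 5254, 5220, 5306 and 4557 TPM in OT1 libraries, against 7786, 7968, 8114, 7413 and 8096 TPM in tumour libraries. The members' median was -0.56, against -0.21 over all genes. After median-of-ratios scaling, chosen after seeing the data, 25 were lower and 8 higher, against 34.6% and 38.8% of all genes, and the median of all genes was 0.05. The summed myeloid markers of 2566 to 20703 TPM in OT1 libraries, against 108 to 231 TPM in tumour libraries, moved with the groups, and their part in these differences was not tested. Without OT1 replicates 2, 4 and 5, 30 members were lower and 2 higher, against 47.0% and 20.7% of all genes, with a median of -0.51 against -0.33 over all genes.

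The 3 members with the lowest log2 differences were Psma5 and Psma3 of the alpha ring and Psmd1 of the base. Psma5 had 107, 102, 90.9, 103 and 76.9 TPM in OT1, against 294, 307, 302, 262 and 270 TPM in tumour cells, a log2 difference of -1.58 ± 0.10 (SE, limma adjusted p = 5.35e-08). Psmd1 had 60.9, 50.8, 54.5, 56.9 and 42.4 TPM in OT1, against 143, 158, 156, 144 and 159 TPM in tumour cells, a difference of -1.51 ± 0.10 (limma adjusted p = 7.01e-08). Psma3 had 187, 158, 147, 172 and 124 TPM in OT1, against 443, 439, 445, 410 and 398 TPM in tumour cells. In each of the 3 genes every OT1 library was below every tumour library. The lid subunit Psmd7 and the base chaperone Psmd5 differed by -1.26 and -1.22, and Psma6, Psmc5 and Psmd4 by -1.13, -1.08 and -1.03. All 7 beta subunits, all 6 ATPases, all 3 other base subunits and all 3 base chaperones were lower in OT1 in TPM. After median-of-ratios scaling Psmb6, Psmc4, Psmc6 and Psmd10 lost the call, with Psmb6 at -0.04 and Psmc4 at 0.04. In the alpha ring 5 were lower, of which Psma2 lost the call after quantile or median-of-ratios scaling and without OT1 replicates 2, 4 and 5. Psma1 was higher, a call that was lost with the replicate block and without any single library other than OT1 replicate 5 or tumour replicate 5. In the lid 6 were lower, of which Psmd6 lost the call after median-of-ratios scaling. Psmd8 and Psmd13 were higher, by 0.28 and 0.25. Neither kept its call without OT1 replicates 2, 4 and 5, whose myeloid sums were highest. That setting keeps only OT1 replicates 1 and 3, with myeloid sums of 2566 and 4583 TPM. The part of the smaller number of libraries in the lost calls was not tested.

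**Figure D5:**
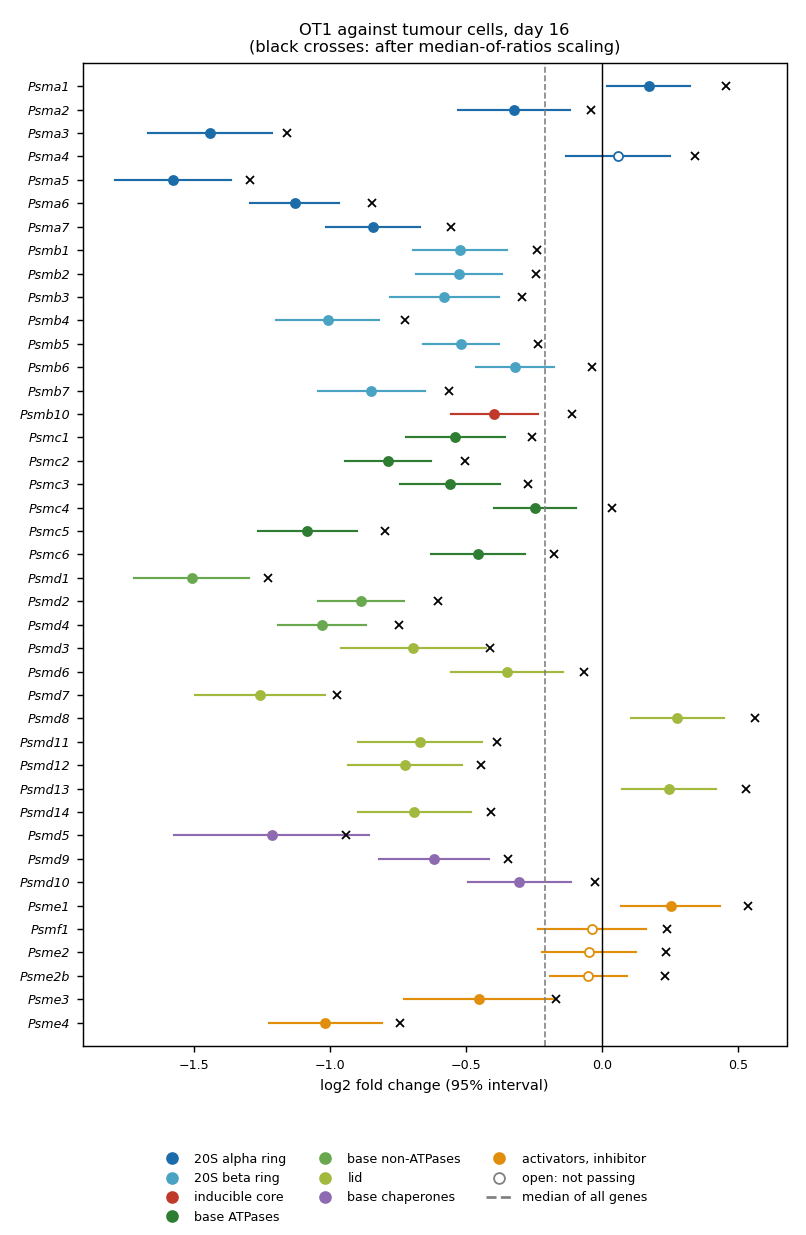
Log2 difference of each member in OT1 cells against tumour cells on day 16 (n = 5 libraries each), with 95% intervals, filled where the limma adjusted p was under 0.05, and the dashed line at the median of all genes. Crosses are values after median-of-ratios scaling and lie right of the dots. Most core, base and lid members are below 0, and Psme1 is above it.

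The shares of the inducible subunits in the catalytic pairs were higher in OT1 libraries than in tumour libraries. Psmb7 had 149, 131, 135, 149 and 109 TPM in OT1, against 238, 236, 238, 241 and 257 TPM in tumour cells, a difference of -0.85 ± 0.09 (limma adjusted p = 4.14e-06). Psmb10 had 149, 142, 143, 134 and 153 TPM in OT1, against 187, 193, 202, 168 and 201 TPM in tumour cells, a difference of -0.40 ± 0.07 (limma adjusted p = 0.000391) that was -0.11 after median-of-ratios scaling (limma adjusted p = 0.14). The smaller log2 difference of the pair was that of Psmb10, which made up 51.8 ± 4.08% of the pair in OT1 and 44.0 ± 1.81% in tumour cells (SD, n = 5 each). The shares did not overlap between the groups, at 47.3 to 58.3% in OT1 and 41.1 to 45.9% in tumour cells. Psmb5 and Psmb6 differed by -0.52 and -0.32 in TPM and by -0.23 and -0.04 after median-of-ratios scaling, Psmb6 then without passing the test. The share of Psmb8 with Psmb5 was 77.7 ± 0.541% in OT1 and 58.1 ± 1.01% in tumour cells, and that of Psmb9 with Psmb6 was 42.1 ± 1.80% in OT1 and 19.8 ± 1.10% in tumour cells. OT1 replicate 5, with the highest myeloid marker sum, had the highest Psmb10 share of the OT1 libraries and the lowest Psmb8 and Psmb9 shares. The part of myeloid RNA in these shares was not tested. The tumour cells' own shares were above those of the 4 LLC culture groups of 32 h, across separately normalized tables and in different LLC lines.

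The activators and inhibitors differed in both directions on day 16, 1 higher and 2 lower of 6 in TPM. Psme1 had 307, 328, 308, 302 and 262 TPM in OT1, against 260, 255, 264, 267 and 220 TPM in tumour cells, and was higher by 0.25 ± 0.08 (limma adjusted p = 0.0157), with overlapping groups. Psme2 differed by -0.05 (limma adjusted p = 0.59) in TPM and was higher by 0.24 after median-of-ratios scaling, and Psmf1 by -0.04 and 0.24. Psme4 had 18.8, 19.8, 17.8, 20.4 and 18.7 TPM in OT1, against 35.0, 43.0, 37.8, 37.1 and 46.3 TPM in tumour cells, a difference of -1.02 ± 0.09 (limma adjusted p = 1.41e-06). Psme3 had 129, 109, 111, 123 and 86.2 TPM in OT1, against 134, 164, 156, 130 and 182 TPM in tumour cells, and was lower by 0.45 on the log2 scale (limma adjusted p = 0.00623), a call that was lost without OT1 replicates 2, 4 and 5 and after median-of-ratios scaling (-0.17, limma adjusted p = 0.17). The ratio of Psme1 to Psme4 averaged 15.8 in OT1 and 6.45 in tumour cells, and that of Psme1 to Psme3 averaged 2.73 in OT1 and 1.69 in tumour cells.

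Genes around the complex were read from lists that sit beside the members. Of 5 measured assembly chaperones of the core, which include Pomp, the beta ring maturation factor, 4 rose with TNF (19.4% of all genes), 4 rose with TNF in BAY-876 (19.3%), 2 rose with BAY-876 (11.5%), and all 5 were lower in OT1 (44.4%). Psmg4 rose by 0.54 with TNF and by 0.43 with BAY-876 at 36 h (limma adjusted p = 0.000383 and 0.0241), and Pomp by 0.28 with TNF (limma adjusted p = 0.0117). Of 7 other 26S components, 4 rose with TNF, among them the ubiquitin receptor Adrm1, by 0.46 (limma adjusted p = 4.07e-07), and all 7 were lower in OT1. Adrm1 also rose by 0.65 with BAY-876 and TNF against control, by 0.49 against BAY-876 and by 0.19 against TNF. The ubiquitin ligase Ube3c fell by 0.29 with BAY-876 at 36 h (limma adjusted p = 0.0144). Of 10 ubiquitin genes and shuttle factors, 3 rose with TNF and 6 were lower in OT1, where 19.4% and 44.4% of all genes did. The shuttle factor Ubqln4 rose by 0.52 with BAY-876 and TNF against control (limma adjusted p = 1.04e-06).

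Of 6 regulators of proteasome genes, 1 rose and 2 fell with TNF, where 19.4% and 26.1% of all genes did. Nfe2l1 had 224, 195 and 180 TPM with BAY-876 and TNF, 128, 114 and 94.9 TPM with TNF, 154, 171 and 154 TPM with BAY-876 and 108, 114 and 98.8 TPM in control. It rose with BAY-876 by 0.58 without TNF and by 0.83 with it (limma adjusted p = 0.00142 and 0.000159), while its TNF difference was 0.06 (limma adjusted p = 0.66) and its 36 h difference 0.10 (limma adjusted p = 0.23). In OT1 it was lower by 1.19 on the log2 scale. Nfe2l2 rose with BAY-876 at 36 h by 0.24 (limma adjusted p = 0.0219). Syvn1, a ubiquitin ligase of the endoplasmic reticulum, fell by 0.38 with BAY-876 (limma adjusted p = 0.000616), and Ngly1, the deglycosylase known to process Nfe2l1, was higher in OT1 by 1.66 (limma adjusted p = 1.6e-07). Among 5 genes of the inducible set outside the members, 2 rose with TNF (19.4% of all genes), 3 fell with BAY-876 (25.8%) and 3 were higher in OT1 (30.1%). Irf1, the interferon regulatory factor, rose with TNF by 1.17 and fell with BAY-876 by 0.83 (limma adjusted p = 9.09e-07 and 3.82e-05). Irf1 rose by 1.50 and Psmb8 by 0.87 with TNF in BAY-876, and Tap1, the peptide transporter subunit, fell with BAY-876 in TNF-treated cells by 0.66 (limma adjusted p = 0.000491). In OT1, Psmb9 was higher by 1.23 and Psmg4 lower by 0.96 on the log2 scale (limma adjusted p = 8.43e-08 and 3.48e-07).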

How the data were processed

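Per the labels, 28 mouse RNA libraries were made from Trizol extracts with a SMARTER kit for mRNA. The tools in the submitters' processing notes are STAR 2.6.1d, DESeq2 1.34.0 and Salmon, version 0.14.1 at 36 h and 0.13.1 elsewhere, with the genome mm10. The 36 h values deposited by the authors are a normalized count signal. The other deposited tables, of 32 h and day 16, are in TPM. The authors' deposited tables for 32 h give a log2 fold change and an adjusted p-value per gene. In the 32 h table, 24 columns matched no sample and were not used.

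Values were taken to log2(value + 1), which understates fold changes of low genes, and all genes past the filter were fitted with limma 3.58.1 in R 4.3.3 (mean-variance trend, Benjamini-Hochberg over all genes, threshold 0.05), the 12 libraries of 32 h in a single fit. The labels give no meaning to replicate numbers, and the fits have no block. The alternatives tried were a pseudocount of 0.1 TPM or 10 counts, dropping the filter, filtering on means of 5 TPM or 100 counts, quantile normalization, a replicate block, each library left out, only the libraries compared, and, added after seeing the data, median-of-ratios scaling. The fit was tested on simulated data.

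The members and gene lists were chosen with earlier results of these data known. Named throughout were Psmb5, Psmb6, Psmb7, Psmb10, Psme1, Psme2, Psme3, Psme4 and Psmf1, with the 6 smallest p per comparison among the called members, and the 3 smallest p among the other lists, whose 34 names all but 1 were measured. Other members are named where a class turned on them. A gene outside the members that the rule names is not reported here. Promoters are RefSeq's on GRCm38.p6 and gene overlaps come from GENCODE M21, read with Python 3.11.15, pandas 2.3.3 and Biopython 1.88.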

Additional observations from a re-analysis of the deposited data

Results flagged for a closer look

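Within groups of 5 libraries, 83 groups were examined for a highest or lowest library that stands apart, and 8 did, where chance gives about 1 in 20. Psma2 was lowest in tumour replicate 4, at 66.5 TPM. Tumour replicate 5 was highest for Psmb7, at 257 TPM, and lowest for Psme1, at 220 TPM. OT1 replicate 5 was lowest for 4 core subunits, with Psma1 at 147 TPM, Psma7 at 208 TPM, Psmb1 at 120 TPM and Psmb3 at 180 TPM, and highest for Psma8, at 2.37 TPM. OT1 replicate 5 also had the highest summed myeloid markers, 20703 TPM against 2566 to 8578 TPM in the other OT1 libraries, whose part in these values was not tested.

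Nfe2l2, a regulator outside the members, differed in its BAY-876 response between cells with and without TNF, with an interaction of 0.30 on the log2 scale (limma adjusted p = 0.0474). Its BAY-876 difference was 0.24 with TNF and -0.05 without it.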

How the results depend on the processing

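Over 97 log2 differences of named members and 1720 alternatives, 1633 kept direction and side of the threshold, 59 lost the threshold, 7 gained it, 19 moved and 2 reversed. The counts of members called are not in this tally. Both reversals came with median-of-ratios scaling on day 16, Psme2 and Psmf1 at 0.24 each, and the cause was not tested. The 36 h count of 5 members was 3 with no filter, and 1 to 10 without single libraries. Other counts without single libraries were 12 to 16 for BAY-876, 36 to 37 for TNF, 35 to 36 for both against control, 10 to 13 for both against TNF, 35 to 39 for both against BAY-876, 0 to 0 for the interaction and 36 to 37 on day 16. Quantile normalization left 33 members higher with TNF and 34 higher and 1 lower, Psmb1, with TNF in BAY-876. The members' median log2 differences were then 0.28 and 0.29, against 0.01 over all genes in each comparison. Shares of all genes called under the settings of this section are not given here. The counts therefore show only how the members' calls moved.

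Libraries with the same replicate number had deviations from the group means that correlated at -0.07 to -0.02 in the 36 h table, -0.19 to 0.12 in the 32 h table and 0.05 to 0.11 in the day 16 table, which does not meet the bar for treating the numbers as pairs. On day 16 all 5 of these correlations were positive, and erythroid marker sums were highest in replicate 4 (2781 TPM in OT1, 899 TPM in tumour cells) and lowest in replicate 2 (65.0 TPM in OT1, 10.1 TPM in tumour cells), so whether a number marks a shared mouse is not known. With the replicate block the counts were 3 at 36 h, 16 for BAY-876, 37 for TNF, 36 for both against control, 12 for both against TNF, 39 for both against BAY-876, 0 for the interaction and 36 on day 16, where the Psma1 call was lost.

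TPM keeps no depth, so counting error is unknown for 32 h and day 16 values. The precision of culture values is limited by 3 libraries per group.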
